A study of Mus musculus with 2 samples.

Results

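Osteolineage-like cells made up 149 of the 3672 cells with at least 1000 UMIs in the LepR_tdT library, which is 4.06% (exact Clopper-Pearson 95% interval 3.44 to 4.75%). A UMI is a unique molecular identifier and stands for 1 counted RNA molecule. A cell was taken as a member when the UMIs of 5 genes, Bglap, Bglap2, Col1a1, Car3 and Mmp13, together reached 0.5% of its UMIs. The reference was the 3373 other cells in which Cxcl12, the chemokine that marks leptin receptor stromal cells, reached 1% of UMIs. A further 150 cells met neither condition. The whole series held 8786 cells.

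The members and the reference came from 1 droplet library of tdTomato+ cells from the bone marrow of LepR-Cre;LSL-tdTomato mice, strain C57Bl/6JCrl, aged 3 to 4 months. In these mice Cre is driven by the leptin receptor gene, so tdTomato marks cells that express it and any descendants, whatever they express later. The second library of the series, EC, held bone marrow endothelial cells of mice with the same genotype, strain and age. The protocol names flushed and digested tibial marrow and a tamoxifen gavage for some samples, but its sample numbers overlap. The sorting of each library, and whether its mice were given tamoxifen, are therefore uncertain. Each population was 1 library and the number of animals in it was not given, so no replicate spread exists, no test was made, and intervals cover counting error only.

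Osteolineage cells run from progenitors through osteoblasts, which secrete and mineralise the collagen matrix of bone, to osteocytes, which are buried in it. The transcription factors Runx2 and Sp7 (osterix) drive the lineage, type I collagen is laid down early, and osteocalcin marks mature osteoblasts. In adult marrow, leptin receptor stromal cells are a known source of new osteoblasts and adipocytes, and they also make the factors that hold haematopoietic stem cells in place.

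Mmp13 supplied most of the rule genes' UMIs. Mmp13, which encodes the collagen-cleaving enzyme collagenase 3 (ENSMUSG00000050578, chromosome 9, 7272514 to 7283331, plus strand), had 7124 UMIs or 8676 CPM (counts scaled to a common total over the summed cells) in osteolineage cells, against 207 CPM in reference cells. Col1a1, the main chain of type I collagen (ENSMUSG00000001506, chromosome 11, 94936224 to 94953042, plus strand), stood at 4937 CPM in osteolineage cells and 131 CPM in reference cells. Bglap, one of the osteocalcin genes (ENSMUSG00000074483, chromosome 3, 88383501 to 88384464, minus strand), stood at 834 CPM in osteolineage cells and 9.12 CPM in reference cells. Its neighbour Bglap2 (ENSMUSG00000074486, chromosome 3, 88377736 to 88378699, minus strand) stood at 676 CPM in osteolineage cells and 17.0 CPM in reference cells. Car3, a carbonic anhydrase also abundant in fat and muscle (ENSMUSG00000027559, chromosome 3, 14863512 to 14872523, plus strand), stood at 834 CPM in osteolineage cells and 14.0 CPM in reference cells. These 5 differences were built in by the choice of cells and are given as a description. Positions are those of GENCODE M21 on GRCm38. Bglap and Bglap2 transcripts are near copies: 98.6% of aligned bases were identical, and 57.1% of the 98-base windows of Bglap also occurred in Bglap2 or Bglap3, so reads may have been lost or split between them and their separate levels are uncertain.

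The start regions of Mmp13, Bglap and Spp1, 3 bone genes on which the results below turn, are shown from the RefSeq promoter table (GRCm38.p6) because each holds ACCACA, the core letters of the site that Runx2 is known to bind. Each window runs from 250 bases before the start of the gene to 50 bases after it, 5′ to 3′ on the gene's strand, with ACCACA in capitals and, in Mmp13, the AP-1 letters TGANTCA also in capitals. The Mmp13 window is chr9:7272264-7272563 (plus strand), the Bglap window chr3:88384417-88384716 (minus strand) and the Spp1 window chr5:104434861-104435160 (plus strand).
Mmp13: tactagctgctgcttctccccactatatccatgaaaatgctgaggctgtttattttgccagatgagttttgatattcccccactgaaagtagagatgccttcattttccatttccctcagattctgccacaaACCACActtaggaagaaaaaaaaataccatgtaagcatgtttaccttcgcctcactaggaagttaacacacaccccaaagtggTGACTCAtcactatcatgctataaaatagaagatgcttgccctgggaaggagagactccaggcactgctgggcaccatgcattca
Bglap: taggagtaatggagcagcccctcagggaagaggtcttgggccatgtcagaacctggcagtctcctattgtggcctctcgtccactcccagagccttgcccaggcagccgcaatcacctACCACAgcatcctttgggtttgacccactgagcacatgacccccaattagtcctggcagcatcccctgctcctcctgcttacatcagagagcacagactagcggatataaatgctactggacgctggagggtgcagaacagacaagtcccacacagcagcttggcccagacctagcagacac
Spp1: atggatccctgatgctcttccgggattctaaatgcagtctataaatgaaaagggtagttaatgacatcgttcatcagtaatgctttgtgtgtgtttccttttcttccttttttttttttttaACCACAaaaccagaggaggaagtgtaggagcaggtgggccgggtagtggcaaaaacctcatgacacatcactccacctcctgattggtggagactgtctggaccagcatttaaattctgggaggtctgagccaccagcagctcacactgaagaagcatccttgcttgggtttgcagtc
ACCACA began 118 bases before the start in Mmp13, 132 in Bglap and 128 in Spp1. Searched on both strands, it was in 16.8% of the table's 32851 windows, and TGANTCA, which does not overlap it in Mmp13, in 7.81%. Of the 2 Spp1 windows in the table, the one nearest the annotated start is shown. Among the 15 genes with the highest ratio of osteolineage over reference cells described further on, 10 had a window and 2 of them held ACCACA, and among the 15 lowest 9 had a window and 2 held it, beside 18.9% of all genes in the table.

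Most members were Mmp13 cells. Mmp13 was the leading rule gene in 103 members, Col1a1 in 32, Car3 in 8 and Bglap and Bglap2 in 3 each. The median member gave the 5 genes 1.05% of its UMIs (range 0.501 to 27.8%), against 0.0144% in the median reference cell. Only 51 of the 149 cells would have met the rule without Mmp13, whereas 115 would have met it without Col1a1 and 134 without Bglap. All 5 genes were seen together in 38 members, 4 of them in 52, and a single one in 6. The choice was a cut through a continuum: 24 members lay between 0.5 and 0.6%, and 32 cells lay between 0.4 and 0.5% and were left out.

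**Figure D1:**
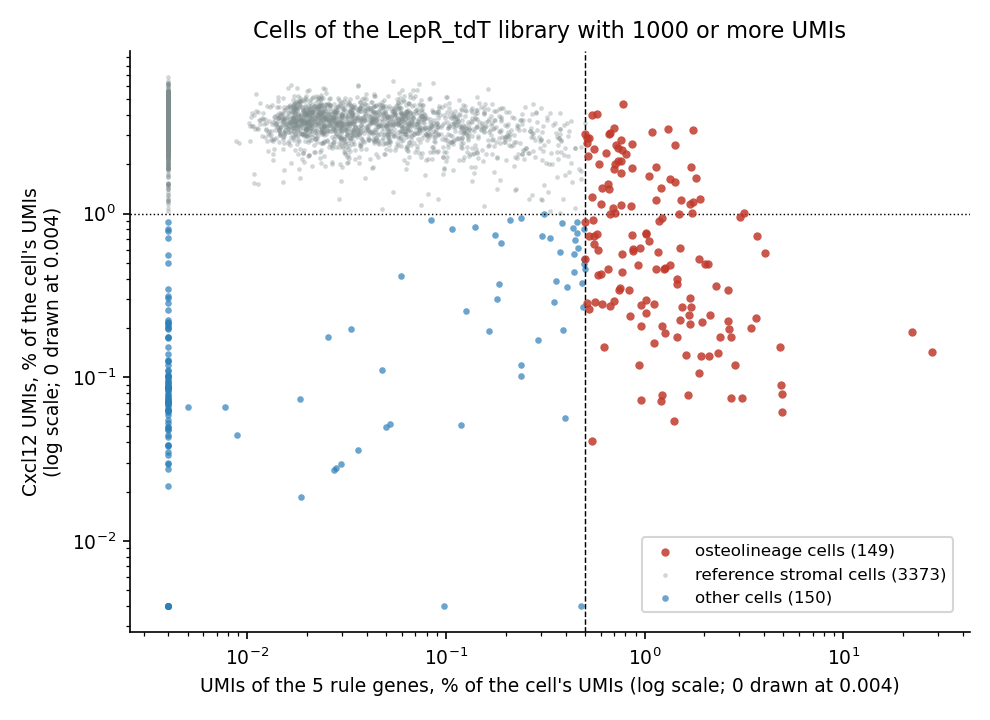
Each point is 1 cell of the LepR_tdT library with 1000 or more UMIs, placed by the share of its UMIs from the 5 rule genes (x, log scale, %) and from Cxcl12 (y, log scale, %). The dashed line is the 0.5% bound of the 149 osteolineage cells and the dotted line the 1% bound of the 3373 reference cells; 53 osteolineage cells lie above 1% Cxcl12.

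**Figure D2:**
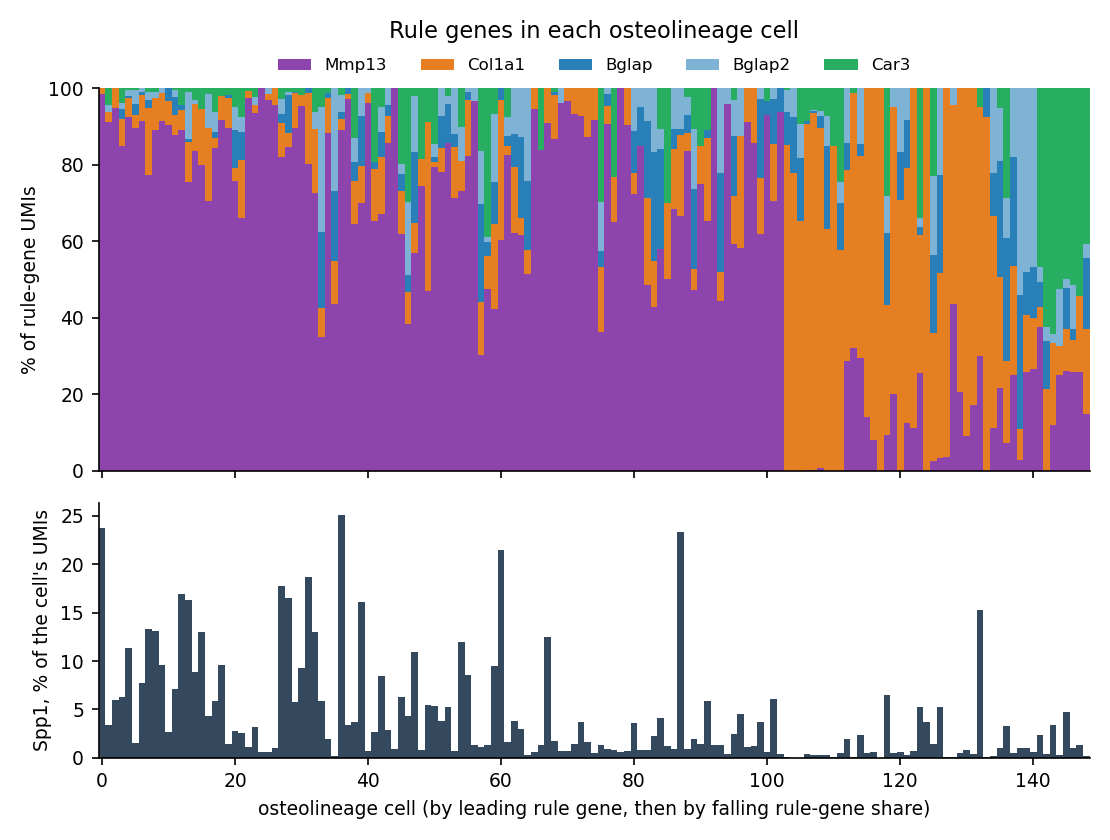
The upper panel gives the make-up of the rule-gene UMIs (%) of each of the 149 osteolineage cells, ordered by leading gene and then by falling rule-gene share, and the lower panel the Spp1 share of the same cell's UMIs (%). Mmp13 led 103 cells, and 38 of the 42 cells with 5% or more Spp1 were among them.

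Of the 10 other osteolineage markers, Spp1, Alpl, Sp7, Dmp1, Pth1r, Col1a2 and Col11a1 were at least 2-fold higher than in the reference, and Ibsp, Runx2 and Phex were not. Depth was alike, with a median of 5145 UMIs and 2012 genes per osteolineage cell and 4675 UMIs and 1999 genes per reference cell; mitochondrial transcripts took a median of 3.13% in osteolineage cells and 2.19% in reference cells. Endothelial markers summed to 15.8 CPM in osteolineage cells and 27.9 CPM in the reference (0 to 0.0357% of a member's and 0 to 0.511% of a reference cell's UMIs), with Cdh5, Tek, Flt4 and Emcn at 0 of 10 markers. Granulocyte markers summed to 52.4 CPM in members and 65.3 CPM in the reference (up to 0.0598% of a member's and 0.790% of a reference cell's UMIs), with Mpo and Retnlg at 0 of 9; macrophage markers to 6.09 CPM in members and 19.3 CPM in the reference (up to 0.0301% of a member's and 0.118% of a reference cell's UMIs), with 6 of 8 at 0, among them C1qa and Csf1r. B cell markers had no UMI in members, a floor of 3.65 CPM. Of the chondrocyte markers, Acan, Col9a1, Col10a1, Hapln1 and Matn3 were at 0 in members, and Col2a1 held 166 of the list's 177 CPM. Erythroid markers reached 4842 CPM in members and 509 CPM in the reference, and 3750 of the members' 3976 such UMIs sat in 1 cell, a Col1a1-led one in which they were 34.95% of its UMIs. Without that cell, Hbb-bs was lower in members, with a log2 ratio of −0.98. No doublet caller was run and no doublet removal is stated; 10 members and 177 reference cells held 5 or more UMIs of endothelial, granulocyte, erythroid, B cell, macrophage or megakaryocyte markers, and without them 760 genes were at least 2-fold higher and 1055 lower, beside the 762 and 1047 given below. No EC cell met the rule (0 of 3800 with 1000 or more UMIs, which allows a share of up to 0.0789%). The 2 cell tables shared 42 barcodes, 1 of them a member's.

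The reporter was thinly counted. TDTOMATO had 10 UMIs in osteolineage cells (12.2 CPM, 5.84 to 22.4) and 306 in reference cells (18.9 CPM, 16.8 to 21.1). The interval of their log2 ratio, −1.71 to 0.27, held 0. Lepr itself stood at 172 CPM in osteolineage cells and 649 CPM in reference cells, a log2 ratio of −1.92 (−2.17 to −1.68).

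Bone matrix and mineralisation genes were higher as a group. Over all 11935 genes with 20 or more UMIs in both sets of cells together, 762 were at least 2-fold higher in osteolineage cells (6.38%) and 1047 at least 2-fold lower (8.77%), with a median log2 ratio of −0.05. The list of bone matrix genes outside the rule had 27 measured members, of which 21 were at least 2-fold higher, 2 lower and 4 within 2-fold, with a median log2 ratio of 2.44. Since members were chosen by genes of the same programme, these counts describe the cells and are no independent support for their name. With 100 or more UMIs required, 3.53% of genes were higher and 11.1% lower, and 16 of 22 listed genes were higher and 2 lower.

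Spp1 was the most abundant of these transcripts. Spp1, which encodes osteopontin, a phosphoprotein that binds mineral and integrins (ENSMUSG00000029304, chromosome 5, 104435118 to 104441050, plus strand), stood at 51839 CPM in osteolineage cells (51348 to 52334) and 6285 CPM in reference cells, a log2 ratio of 3.04 (3.03 to 3.06). It took a median of 1.59% of a member's UMIs (quartiles 0.656 and 5.43%, highest 25.1%) and 0.509% of a reference cell's UMIs (quartiles 0.253 and 0.844%, highest 4.96%). The 2 sets overlapped widely at the low end. At least 5% Spp1 was found in 42 members, and in 0 of 3373 reference cells, which allows a share of up to 0.0889%. That bound holds for the reference cells only, which were chosen for high Cxcl12. Among the 150 cells that met neither condition, a few also reached 5% Spp1, so this level was not confined to members. Spp1 in free RNA, measured in barcodes with fewer than 100 UMIs, stood at 6504 CPM; in 28 endothelial-marked cells of the same library, which gave endothelial markers 1% or more of their UMIs (median 3088 UMIs), it stood at 151 CPM. After thinning every cell to 1000 UMIs, Spp1 was seen in 96.6% of members, 90.7% of reference cells and 14.3% of the endothelial-marked cells. Where members were chosen without Mmp13 and Car3, the log2 ratio of Spp1 was 1.85.

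The collagens and mineralisation enzymes divided into steep and shallow differences. Postn, which encodes the periosteal matrix protein periostin, stood at 504 CPM in osteolineage cells and 5.61 CPM in reference cells (log2 6.49, 6.16 to 6.83), and was seen in 101 of 149 members and 54 of 3373 reference cells, with no UMI in the 28 endothelial-marked cells. Alpl, tissue-nonspecific alkaline phosphatase, which releases phosphate for mineral, stood at 480 CPM in members and 61.5 CPM in reference cells (2.96, 2.79 to 3.13). Ifitm5, an osteoblast membrane protein mutated in a human form of brittle bone disease, stood at 152 CPM in members and 2.77 CPM in reference cells (5.78, 5.28 to 6.30). Col11a1 (97.4 CPM in members and 9.06 CPM in reference cells) and Col12a1 (199.7 CPM in members and 31.4 CPM in reference cells), minor fibril and fibril-associated collagens, had log2 ratios of 3.43 and 2.67. Col1a2, the partner chain of Col1a1, was already well seen in the reference, at 4472 CPM in members and 1248 CPM in reference cells (1.84, 1.79 to 1.89). Sparc (osteonectin, a collagen-binding glycoprotein) stood at 6814 CPM in members and 3349 CPM in reference cells (1.02). In the 103 Mmp13-led members alone, the ratios of Col1a2 and Sparc were 0.53 and 0.41.

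Ibsp and Mgp were not higher. Ibsp, which encodes bone sialoprotein and lies near Spp1, stood at 6330 CPM in osteolineage cells and 6611 CPM in reference cells (log2 −0.06, −0.103 to −0.0225). Its median share was 0.501% of a member's UMIs and 0.609% of a reference cell's, with wide overlap. Serpinf1, an anti-angiogenic serpin, was higher by less than 2-fold (326 CPM in members and 232 CPM in reference cells). Mgp, the matrix Gla protein that inhibits mineralisation, was lower in members as a sum, at 1689 CPM in members and 3421 CPM in reference cells (−1.02, −1.10 to −0.94), but its sign depended on the members: 0.16 when they were chosen without Mmp13 and Car3.

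Of 16 measured osteoblast transcription factors, 6 were at least 2-fold higher, 1 lower and 9 within 2-fold, beside 6.38% higher and 8.77% lower of all genes. Mef2c, a MADS-box factor active in osteoblasts and osteocytes, stood at 317 CPM in osteolineage cells and 34.6 CPM in reference cells (log2 3.19, 2.98 to 3.41). Sp7 stood at 133 CPM in members and 39.4 CPM in reference cells (1.75, 1.45 to 2.05) and Creb3l1, which controls secretory genes in osteoblasts, at 81.6 CPM in members and 39.9 CPM in reference cells (1.03, 0.65 to 1.40). Runx2 was within 2-fold, at 211 CPM in members and 136 CPM in reference cells (0.63, 0.40 to 0.86), and so was Dlx5 (178 CPM in members and 128 CPM in reference cells, 0.47). Msx1, a homeobox factor, was the lower one, at 13.4 CPM in members and 35.1 CPM in reference cells (−1.39).

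Osteocyte genes differed in how many members held them. Dmp1, a matrix phosphoprotein of osteocytes that lies near Spp1 and Ibsp (ENSMUSG00000029307, chromosome 5, 104202613 to 104214102, plus strand), stood at 170 CPM in osteolineage cells and 4.50 CPM in reference cells (log2 5.24, 4.83 to 5.67). It was seen in 22 members, and 1 cell held 36 of its 140 UMIs. Fam20c, the secretory kinase that phosphorylates osteopontin and Dmp1, stood at 186 CPM in members and 7.02 CPM in reference cells (4.73), with a UMI in 50 members. Phex, an endopeptidase of osteocytes, was within 2-fold, at 64.5 CPM in members and 88.9 CPM in reference cells (−0.46, −0.89 to −0.07). Sost and Fgf23, products of mature osteocytes, had 0 UMIs in both sets of cells, with floors of 3.65 CPM in members and 0.185 CPM in the reference. Of the 7 measured genes of this list, 4 were at least 2-fold higher, beside 6.38% of all genes, and 3 within 2-fold.

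Receptors and signals to osteoclasts differed gene by gene. Pth1r, the parathyroid hormone receptor, stood at 748 CPM in osteolineage cells and 165 CPM in reference cells (log2 2.18, 2.05 to 2.31). Vdr, the vitamin D receptor, stood at 399 CPM in members and 59.3 CPM in reference cells (2.75), Cd200, an immune-inhibitory surface ligand, at 547 CPM in members and 95.3 CPM in reference cells (2.52) and the growth factor receptor Fgfr3 at 65.8 CPM in members and 22.7 CPM in reference cells (1.54). These were the 4 higher genes among 19 measured receptors, of which 3 were lower, Pdgfrb (−1.15), Ghr (−1.10) and Npr3, and 12 within 2-fold. Among all genes 6.38% were higher and 8.77% lower. Npr3, a natriuretic peptide clearance receptor, had 0 UMIs in members and 180 in the reference, at least 3.04-fold lower with members set to 3 UMIs. Tnfsf11, which encodes RANKL, the cytokine that drives osteoclast formation, stood at 303 CPM in members and 86.1 CPM in reference cells (1.82, 1.62 to 2.01), and its ratio was 0.25 when members were chosen without Mmp13 and Car3. Tnfrsf11b, the RANKL decoy osteoprotegerin, was at 13.4 CPM in members and 3.20 CPM in reference cells, 11 UMIs in members. The 2 ligands of the Csf1 receptor differed from each other: Csf1 was level (426 CPM in members and 436 CPM in reference cells, −0.03, −0.19 to 0.12), and Il34 stood at 77.9 CPM in members and 591 CPM in reference cells (−2.92, −3.30 to −2.57).

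Of 24 measured Wnt and BMP modulators, 5 were at least 2-fold higher, 7 lower and 12 within 2-fold, beside 6.38% higher and 8.77% lower of all genes. With 100 or more UMIs required, 2 of 19 were higher and 7 lower, beside 3.53% and 11.1% of all genes, with a median log2 ratio of −0.44 for the list. The Wnt inhibitor Wif1 stood at 1073 CPM in osteolineage cells and 321 CPM in reference cells (log2 1.74, 1.64 to 1.84). Sfrp4, another secreted Wnt inhibitor, stood at 588 CPM in members and 1647 CPM in reference cells (−1.49), and Sfrp2 had 0 UMIs in members and 215 in the reference, at least 3.63-fold lower. The BMP ligand Bmp4 stood at 42.6 CPM in members and 280 CPM in reference cells (−2.71, −3.24 to −2.24), and the BMP and activin antagonists Chrdl1 (79.2 CPM in members and 579 CPM in reference cells, −2.87) and Fst (129 CPM in members and 570 CPM in reference cells, −2.14) were lower as well.

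Matrix-degrading enzymes other than Mmp13 were higher too. Of 13 measured metalloproteinases and inhibitors, 9 were at least 2-fold higher in osteolineage cells, 1 lower and 3 within 2-fold, with a median log2 ratio of 1.32. The shares over all genes were 6.38% higher and 8.77% lower. The gelatinase Mmp2 stood at 261 CPM in osteolineage cells and 16.1 CPM in reference cells (4.02, 3.75 to 4.28), and the membrane enzyme Mmp14, which activates it, at 468 CPM in members and 188 CPM in reference cells (1.32). The inhibitors Timp1 (648 CPM in members and 133 CPM in reference cells, 2.29) and Timp3 (236 CPM in members and 47.7 CPM in reference cells, 2.31) were higher as well, and the aggrecanase Adamts5 stood at 235 CPM in members and 81.6 CPM in reference cells (1.53). Adamts1 was the lower one (123 CPM in members and 323 CPM in reference cells, −1.39). Of 31 measured genes of collagen processing and secretion 26 were within 2-fold, beside 10126 of all 11935 genes, and the list's median log2 ratio was −0.03. The 3 higher, beside 6.38% of all genes, were Plod2, a collagen lysyl hydroxylase (152 CPM in members and 28.6 CPM in reference cells, 2.41), Bmp1, the procollagen proteinase (1.27), and Fkbp11 (1.21). Fkbp11 stood at −0.055 in Mmp13-led members. Taken apart, 10 of the 31 genes were at least 2-fold higher than in the reference in Col1a1-led members and 2 in Mmp13-led members. The share of all genes was not counted in these subsets.

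**Figure D3:**
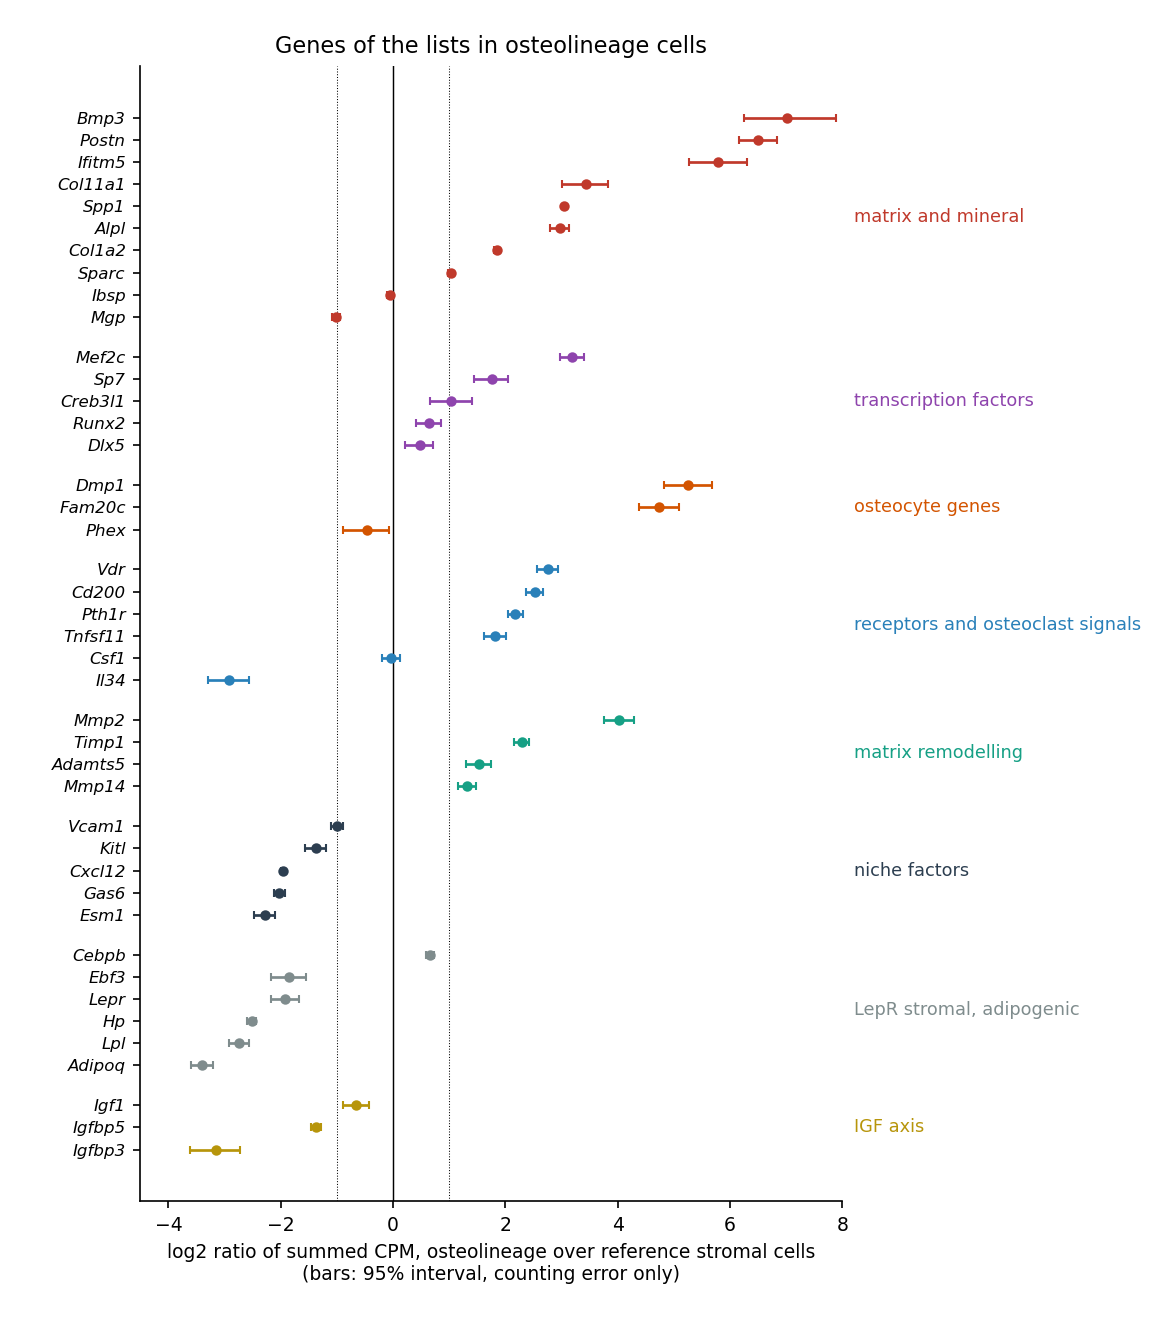
Points are log2 ratios of summed CPM of the 149 osteolineage cells over the 3373 reference stromal cells for genes of the lists, with bars for the 95% interval of counting error and dotted lines at 2-fold. Spp1, Postn, Dmp1 and Mmp2 lie to the right, Ibsp, Csf1 and Runx2 within 2-fold, and Cxcl12, Adipoq and Il34 to the left.

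Most listed niche factors were lower in osteolineage cells. Of 17 measured haematopoietic niche factors other than Cxcl12, 10 were at least 2-fold lower, 3 higher and 4 within 2-fold, with a median log2 ratio of −1.27. Among all genes 8.77% were lower and 6.38% higher. The reference was chosen on Cxcl12 (ENSMUSG00000061353, chromosome 6, 117168535 to 117181367, plus strand), so its 9238 CPM in osteolineage cells and 35981 CPM in reference cells are a description. Kitl, which encodes stem cell factor, stood at 301 CPM in members and 780 CPM in reference cells (−1.37, −1.56 to −1.19), and Gas6, a ligand of the TAM receptor kinases, at 1192 CPM in members and 4851 CPM in reference cells (−2.02). Esm1, an endothelial-associated proteoglycan, stood at 295 CPM in members and 1434 CPM in reference cells (−2.28). The adhesion molecule Vcam1, at 1006 CPM in members and 2012 CPM in reference cells, sat on the 2-fold line (interval −1.10 to −0.90). The 3 higher ones were the heparin-binding cytokine Ptn (20.7 CPM in members and 4.44 CPM in reference cells, 2.22), Tgfb1 (197 CPM in members and 66.1 CPM in reference cells, 1.58) and the Notch ligand Jag1 (46.3 CPM in members and 21.7 CPM in reference cells, 1.09). Ptn stood at −0.096 without 18 Col1a1-led cells rich in Col3a1 that are described further on.

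None of the 25 measured stromal and adipogenic genes was at least 2-fold higher in osteolineage cells. In this list 13 were lower and 12 within 2-fold, with a median log2 ratio of −1.14. The shares over all genes, for this list and the IGF axis below, were 6.38% higher and 8.77% lower. Adipoq, the adipokine adiponectin, stood at 255 CPM in osteolineage cells and 2680 CPM in reference cells (−3.40, −3.60 to −3.20). It took a median of 0% of a member's UMIs and 0.226% of a reference cell's. Lpl, lipoprotein lipase, stood at 349.5 CPM in members and 2338 CPM in reference cells (−2.74), haptoglobin (Hp) at 1688 CPM in members and 9656 CPM in reference cells (−2.52) and Ebf3, a transcription factor of these stromal cells, at 105 CPM in members and 378 CPM in reference cells (−1.85). Cebpb, a C/EBP factor that acts early in fat cell formation, went the other way within 2-fold (2023 CPM in members and 1284 CPM in reference cells, 0.66). The IGF axis had 7 of 11 measured genes lower and none higher: the binding proteins Igfbp3 (52.4 CPM in members and 466 CPM in reference cells, −3.15) and Igfbp5 (1154 CPM in members and 2988 CPM in reference cells, −1.37) and the IGF-binding-protein protease Pappa (151 CPM in members and 614 CPM in reference cells, −2.02) were among them, and Igf1 itself was within 2-fold (206 CPM in members and 325 CPM in reference cells, −0.66). Adipoq and Cxcl12 were also present in free RNA (2136 CPM of Adipoq and 24063 CPM of Cxcl12), and the 28 endothelial-marked cells held 151 CPM of Adipoq and 1126 CPM of Cxcl12.

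All 21 measured oxidative phosphorylation genes and all 17 immediate early and stress genes were within 2-fold, with median log2 ratios of −0.03 for the first list and 0.08 for the second. Fos, an immediate early gene, stood at 2923 CPM in osteolineage cells and 1857 CPM in reference cells (0.65). Of 14 measured glycolysis genes 12 were within 2-fold, beside 10126 of all 11935 genes. Of 10 measured proliferation genes 6 were at least 2-fold higher, beside 6.38% of all genes, but with 100 or more UMIs required only 1 of 4, beside 3.53%. Against the reference, 7 of the list were higher in Mmp13-led members and 0 in Col1a1-led members. The share of all genes was not counted in these subsets. Their floors differed, at 5.12 CPM in the 103 Mmp13-led and 17.4 CPM in the 32 Col1a1-led members. A scarce transcript was thus harder to call higher in the Col1a1-led members, and the 2 counts are not compared. Top2a, the mitotic topoisomerase, was seen in 5 members, all Mmp13-led, and 22 of its 36 UMIs were in 1 of them.

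Among genes with 100 CPM or more in the higher set, the first were Bmp3, a BMP family member that opposes bone formation (128 CPM in osteolineage cells and 0.986 CPM in reference cells, log2 7.02), Cpe, the prohormone-processing carboxypeptidase E (381 CPM in members and 3.02 CPM in reference cells, 6.98), Postn and Col2a1, the type II collagen of cartilage (166 CPM in members and 1.85 CPM in reference cells, 6.49). S100a4, a calcium-binding protein (122 CPM in members and 1.91 CPM in reference cells, 5.99), Ramp1, a subunit of the calcitonin gene-related peptide receptor (117 CPM in members and 2.46 CPM in reference cells, 5.57), Mgll, which breaks down an endocannabinoid (129 CPM in members and 3.70 CPM in reference cells, 5.13), Ptgis, prostacyclin synthase (491 CPM in members and 16.3 CPM in reference cells, 4.92), Cdh15, a cadherin first known in muscle (141 CPM in members and 5.36 CPM in reference cells, 4.72), and the adhesion molecule Cadm1 (332 CPM in members and 20.5 CPM in reference cells, 4.02) followed. Cpe was seen in 77 of 149 members and 36 of 3373 reference cells, and in 0 of 28 endothelial-marked cells. The 15 highest were completed by Aspn, Ifitm5, Col25a1, Dmp1 and Fam20c.

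The lowest ratios were those of Efemp1, the matrix protein fibulin-3 (8.52 CPM in osteolineage cells and 146 CPM in reference cells, log2 −4.09, −5.41 to −3.05), Itih5, of the hyaluronan-binding inhibitor family (13.4 CPM in members and 219 CPM in reference cells, −4.03), the monocyte chemokine Ccl2 (29.2 CPM in members and 356 CPM in reference cells, −3.61), the secreted synapse organiser Cbln1 (10.96 CPM in members and 117 CPM in reference cells, −3.42) and the monooxygenase Fmo2 (30.4 CPM in members and 321 CPM in reference cells, −3.40). The kininogens Kng1 (73.1 CPM in members and 588 CPM in reference cells, −3.01) and Kng2 (90.1 CPM in members and 716 CPM in reference cells, −2.99), the serpins Serpina3c (−3.07) and Serpina3f (−3.05) and the interferon-induced GTPase Iigp1 (−2.91) were in the same set, with Adipoq, Igfbp3, Ms4a4d, Pla1a and Il34. Kng1 and Kng2, and Serpina3c and Serpina3f, are close paralogs between which reads may have been split.

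Bone and stromal transcripts changed along the rule-gene share, and not in step. The cells below 0.5% were reference cells only, all with Cxcl12 at 1% or more of UMIs, and those above it members at any Cxcl12 level. The 150 cells that met neither condition were left out of these bands of rule-gene share. In cells ordered by that share, Alpl stood at 37.7 CPM below 0.05% (2663 cells), 80.1 at 0.05 to 0.1% (372 cells), 153 at 0.1 to 0.25% (251 cells), 407 at 0.25 to 0.5% (87 cells), 497 at 0.5 to 1% (70 cells), 500 at 1 to 2% (53 cells) and 403 at 2% or more (26 cells). Most of the difference in Alpl thus lay among cells that did not meet the rule. Spp1 stayed between 5997 and 8022 CPM over the 4 bands below 0.5% and stood at 32992, 62702 and 72073 CPM in the 3 bands above it. Postn stood at 1.66, 3.74, 21.6, 81.8, 418, 658 and 403 CPM in the same order. Ibsp stood at 6623, 7114, 6363, 4823, 4408, 7586 and 8117 CPM, lowest at 0.5 to 1% (4192 to 4633) and highest at 2% or more (7686 to 8565).

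The stromal genes ran down over the same bands. Cxcl12 stood at 36823, 35029, 32096, 26846, 13651, 7687 and 2647 CPM, and Adipoq at 2846, 2350, 1978, 1272, 426, 147 and 85.6 CPM. Lepr stood at 670 CPM in the lowest band and 18.3 CPM (3.78 to 53.6) in the highest. Vcam1 stood at 2045 CPM in the lowest band, 1851 at 0.25 to 0.5% and 593 in the highest. The bands below 0.5% hold only the reference cells, which were chosen for high Cxcl12, so the Cxcl12 bound of the cells also changes at the 0.5% line. The part of that bound in these values was not tested. A cell's rule-gene share also takes part in its own total, by up to 27.8% of UMIs. In no band were these stromal genes at 0.

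**Figure D4:**
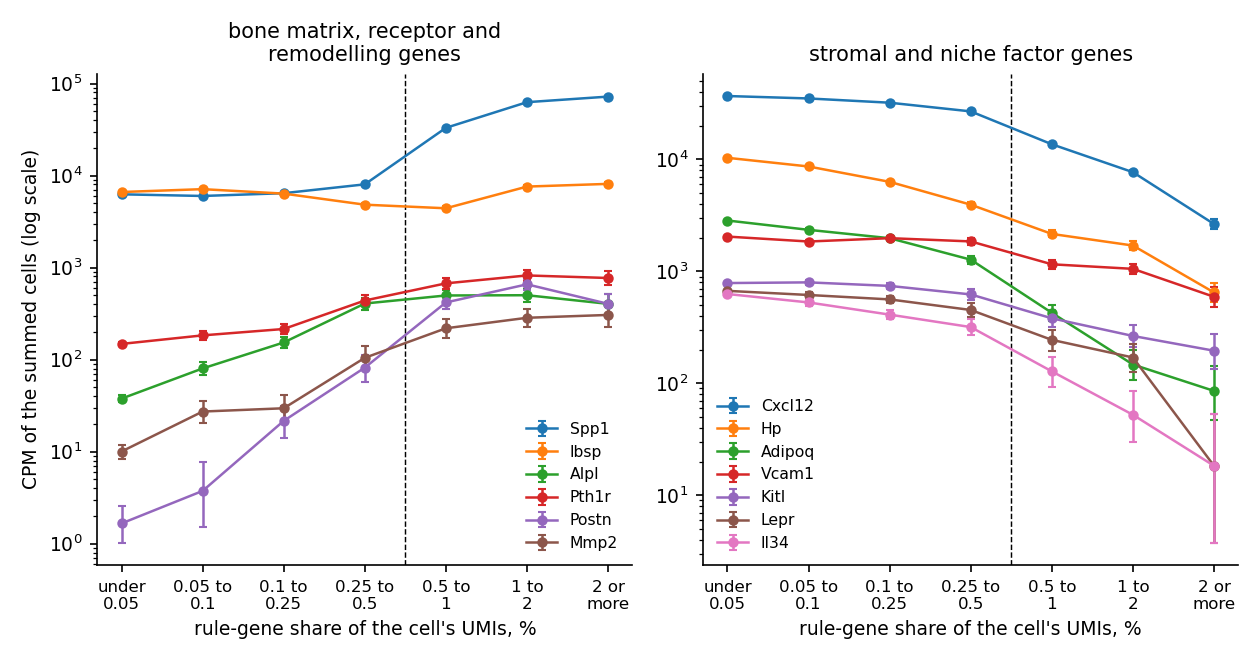
Points are CPM of the summed cells (log scale) in 7 bands of the rule-gene share of a cell's UMIs (%), with bars for the 95% Poisson interval, and the dashed line marks the 0.5% bound of the osteolineage cells. Spp1 lies at 6252 CPM in the lowest band and 8022 CPM in the band just below the bound, and is far higher beyond it. Alpl and Pth1r are already higher before the bound, and Cxcl12, Adipoq, Lepr and Il34 are lower in each band past it. Bands below the bound hold reference cells only, all with 1% or more Cxcl12, and bands above it members at any Cxcl12 level.

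The osteolineage cells were not of one kind. The following subsets were drawn after their values had been seen and are descriptions; a gene that defines a subset is no result about it. The 103 Mmp13-led members held 65865 CPM of Spp1 and the 32 Col1a1-led members 17418 CPM, or 11413 CPM without the 1 cell that held 1120 of their 3006 Spp1 UMIs. Of the 140 Dmp1 UMIs, 139 were in Mmp13-led cells, and Angpt4, an angiopoietin that binds the Tek receptor, had 293 UMIs (500 CPM) in Mmp13-led and 8 UMIs (46.4 CPM) in Col1a1-led cells. Col25a1, a membrane collagen, had 80 UMIs in Mmp13-led and 3 in Col1a1-led cells.

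Dmp1 picked out 16 Mmp13-led cells with 2 or more of its UMIs. In them Spp1 took a median of 12.5% of UMIs (1.69 to 25.1%), and in the other 133 members 1.33%. Summed, Spp1 stood at 135371 CPM in the 16 cells and 36390 CPM in the rest, and Fam20c at 562 CPM in the 16 cells and 117 CPM in the rest. Bglap was lower there, at 218 CPM in the 16 cells, 948 CPM in the rest and 473 CPM over all 103 Mmp13-led members. Col1a1 stood at 1958 CPM in the 16 cells and 5488 CPM in the rest, which include the 32 Col1a1-led cells. Over all 103 Mmp13-led members Col1a1 stood at 1154 CPM, so the 16 cells were not low in Col1a1 among cells of their own kind. These 16 cells were deeper, with a median of 8489 UMIs against 4999 in the rest, so a count of 2 Dmp1 UMIs was reached more easily in them; the part of depth was not tested.

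The Col1a1-led cells fell into 2 sets by Col3a1, the type III collagen of fibrous tissue. Of the 32 cells, 14 had fewer than 5 Col3a1 UMIs and 18 had 5 or more, with median depths of 5090 UMIs in the 14 and 5157 UMIs in the 18. The 14 held 33348 CPM of Col1a1 and 1316 CPM of Cxcl12, near the 1126 CPM of the endothelial-marked cells. They carried Ifitm5 at 779 CPM, the cartilage and bone collagen Col11a2 at 443 CPM, Col22a1 at 282 CPM, Fam20c at 282 CPM and Smpd3, a sphingomyelinase needed for bone mineral, at 282 CPM. Of their Fam20c UMIs, 12 of 21 were in 1 cell. Among the 14 was the cell in which erythroid markers took 34.95% of UMIs. Bglap stood at 3209 CPM in the 14, and at 1480.4 CPM without the 2 cells of highest rule-gene share. The cell with erythroid markers held 64 of the 103 Bglap UMIs then left. Without the same 2 cells of highest share Col11a2 stood at 187 CPM. In those 2 cells the rule genes took 27.8% and 22.3% of UMIs, with 664 and 367 of the 4054 Col1a1 UMIs of all members, while Spp1 had 1 UMI in one and 0 in the other.

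The 18 cells rich in Col3a1 were mixed. Mgp stood at 7839 CPM in the 18, in 17 of them, and 269 CPM in the 14, where 1 cell held 17 of the 20 UMIs, and the basement membrane protein Fbln1 at 1498 CPM in the 18 and 80.6 CPM in the 14. Rarres2, the adipokine chemerin, stood at 1519 CPM in the 18 and 53.7 CPM in the 14, and Ogn, a small leucine-rich proteoglycan, at 1081 CPM in the 18 and 80.6 CPM in the 14. Aspn, a proteoglycan of periosteum and ligament, had 95 UMIs in 12 of the 18 cells and 1 UMI in the 14. Apod, a lipid-binding lipocalin, had 151 UMIs in the 18 and 0 in the 14, but 125 of them were in 1 cell, and the other 17 cells held 26 (280 CPM). Of the 63 UMIs of Ly6a, the surface antigen Sca-1, 31 were in the same cell. Markers of fibroblasts and tendon summed to 866 CPM in the 18 cells and 94.0 CPM in the 14, against 26.9 CPM in reference cells (up to 0.604%, 0.120% and 0.253% of a cell's UMIs), with Scx, Thbs4 and Cilp at 0 of 9 markers over all members. Ly6a is 1 of the 9 and supplied 63 of the 85 UMIs in the 18 cells. The same markers stood at 371 CPM in the endothelial-marked cells and 492 CPM in the EC library, so they were not particular to fibroblasts here. Only 5 of the 18 cells held 5 or more of these marker UMIs, 1 cell held 32 of the 85, and the median cell gave them 0.0536% of its UMIs. Another of the 18 held 61 of the set's 87 Bglap UMIs, with all 9 of Smpd3 and all 3 of Ifitm5. Aspn was seen in 14 of the 149 members and Ifitm5 in 30, and no member held both. With so few cells, the lack of overlap is a description only.

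The 14 members led by Bglap, Bglap2 or Car3 are given by leading gene. The 8 led by Car3 held 51 UMIs of Cpe (1251 CPM) and 46 of Alpl (1129 CPM), beside 190 of Car3, which defines them. The 6 led by Bglap or Bglap2 held 3 UMIs of Cpe (137 CPM), 10 of Alpl (457 CPM) and 12 of Car3. Of those 10 Alpl UMIs, 6 were in 1 cell. No UMI of Dmp1, Ifitm5 or Aspn was in the 14 cells, a floor of 47.9 CPM.

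**Figure D5:**
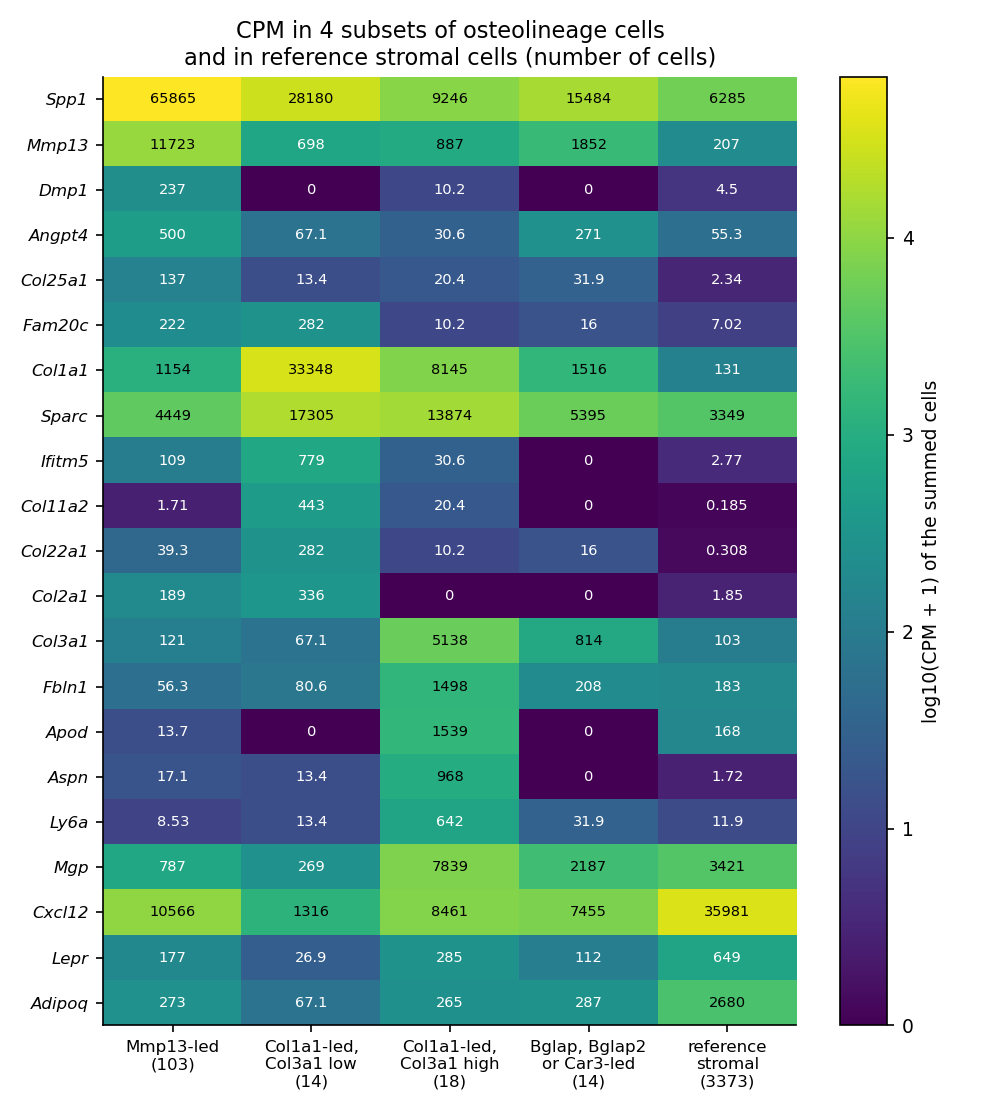
Colours give log10(CPM + 1) and numbers CPM of the summed cells for 4 subsets of osteolineage cells and, at the right, the reference stromal cells, with the number of cells below each column. Spp1 is highest in Mmp13-led cells, at 65865 CPM, Ifitm5 and Col11a2 in the Col1a1-led cells low in Col3a1, and Aspn and Apod in those with 5 or more Col3a1 UMIs, where 1 cell held 125 of 151 Apod UMIs.

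The level of Cxcl12 divided the members further. Cxcl12 was below 1% of UMIs in 96 members and at or above it in 53, at median depths of 5157 UMIs in the 96 and 5039 UMIs in the 53. The rule-gene share was 1.23% in the median cell of the 96 and 0.758% in that of the 53. Spp1 stood at 69601 CPM in the 96 cells and 15987 CPM in the 53, and Dmp1 at 249 CPM in the 96 (137 UMIs) and 11.03 CPM in the 53 (3 UMIs). Ifitm5 had 124 UMIs in the 96 and 1 in the 53, and Col2a1 had 132 in the 96 and 4 in the 53. Adipoq stood at 82.0 CPM in the 96 and 603 CPM in the 53, and Lepr at 98.3 CPM in the 96 and 320 CPM in the 53, so the 53 cells held Lepr at a lower level than the 649 CPM of the reference. Tnfsf11, unlike Spp1, was higher in the 53, at 251 CPM in the 96 and 408 CPM in the 53, while Alpl (517 CPM in the 96 and 404 CPM in the 53) and Ibsp (6824 CPM in the 96 and 5334 CPM in the 53) differed by less than 1.5-fold.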

How the data were processed

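Raw UMI counts per gene and barcode, and a table of the cells kept, were used as deposited by the authors for 2 droplet libraries; per the submitters' processing notes, the build was mm10 and the tools were Seurat 2.3.4 and Cell Ranger 2.1.1, and whether counting used strand is not given in the sources used here, so antisense and overlapping genes are uncertain. UMI and gene numbers matched the cell table in all 8786 cells. The cells' UMIs summed to 18139911 in the LepR_tdT library and 14111524 in the EC library.

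Cells were selected by the rule, UMIs were summed over cells and scaled to CPM with Python 3.11.15, numpy 2.4.6, scipy 1.17.1 and pandas 2.3.3, and drawn with matplotlib 3.10.9. Intervals are 95% exact Poisson for CPM, conditional exact binomial for ratios and Clopper-Pearson for shares. They cover counting error only, and cells are not replicates. A count under 3 UMIs in a group, 0 included, was set to a floor of 3 for ratios. A ratio with a count so set was not read past no difference. The procedure was tested on simulated data. Of 27999 gene IDs, 27722 were found in GENCODE M21.

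The members and lists were chosen with earlier results of these data known. Named genes were the rule genes, list members, the 15 highest and 15 lowest ratios among genes with 100 CPM or more in the higher set, and markers of other cell types. Genes named in the subsets were chosen after their values were seen. Alternatives changed the rule, the depth bound, the reference, the weighting, the scaling, free RNA, thinning, minimum counts and the fold. Promoters of Bglap2, Col1a1 and Car3 were not used here.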

Additional observations from a re-analysis of the deposited data

How the results depend on the processing

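The number of osteolineage cells was 261 with a rule share of 0.25%, 79 with 1% and 38 with the rule without Car3 and Mmp13. Genes at least 2-fold lower numbered 694 at a share of 0.25%, 557 with cells thinned to 1000 UMIs, 361 at a fold of 3 and 1857 with no floor, which counts genes at 0. Genes at least 2-fold higher numbered 334 with a minimum of 100 UMIs and 388 at a fold of 3. Under the other settings they numbered 666 to 935 higher and 737 to 1272 lower. Signs turned for Prg4 (log2 0.44) at a share of 0.25%, for Hk2 (−0.36), Mgp (0.16) and Nr2f2 (0.71) under the rule without Car3 and Mmp13, for Car2 (−0.13) against all other cells, for Col5a1 (−0.012) and Fkbp11 (−0.055) in Mmp13-led members, and for Ptn (−0.096) without the Col1a1-led cells rich in Col3a1; the cause was not tested. Of 146 named genes past 2-fold, 128 kept their direction under the rule without Car3 and Mmp13 (115 still past 2-fold), 3 turned and 15 were at 0 because under 3 UMIs were left in 1 or both groups. After thinning, 126 kept it (116 past 2-fold), none turned and 20 were at 0 likewise. Settings on Mmp13-led members, on the Col3a1-rich cells, on the floor, on top cells and on the niche list without Cxcl12 were added after seeing the data. No paired analysis was possible because each population was 1 library. Members' floor was 3.65 CPM, which limits what a count of 0 shows.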
